A study of Mus musculus with 12 samples.

Results

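Caspases are the proteases that carry out apoptosis and that process inflammatory cytokines, and inflammasome sensors are the cytosolic receptors that switch the inflammatory caspases on. Here 9 genes of these and related systems were followed through a time course of interferon-β (Ifn-β) in mouse macrophages. They were the peptidoglycan sensor Nod1, the inflammasome sensor Nlrp3, the adaptor Pycard, and the caspases Casp1, Casp4, Casp8, Casp9, Casp2 and Casp6. A gene was taken where the array annotation gave exactly 1 symbol to its transcript cluster, the set of probes summarised for one transcribed region. All 9 genes met this rule, each with 1 cluster, among the 14860 genes and 23332 clusters measured. The rule uses measured levels only to choose among several clusters of a gene, by the highest mean, which none of the 9 needed. The genes themselves were picked with earlier results of these arrays known.

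The macrophages were grown from bone marrow of male Balb/c mice aged 8 to 9 weeks with CSF1, the growth factor of this lineage, at 10000 U/ml. They were then given mouse Ifn-β at 10 U/ml. Arrays of cells 1, 2, 4, 8 and 24 h after Ifn-β were compared with arrays of untreated cells at 0 h, 2 arrays at each of the 6 times. Every culture carried CSF1, and no culture without Ifn-β was sampled after 0 h, so time in culture and time after Ifn-β cannot be told apart. Each pair of arrays is labelled as biological replicates whose RNA came from separate wells. Whether the wells held cells of 1 marrow preparation or of several is not stated, so p-values measure only the spread between these samples, which may be technical.

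In macrophages, Nod1 senses fragments of bacterial peptidoglycan and activates the NF-κB and MAP kinase pathways, while Nlrp3 responds to membrane damage and ion loss. Nlrp3 recruits Pycard, also called ASC, which in turn gathers and activates caspase-1, the protease that matures interleukin-1β and interleukin-18. Casp4 encodes the protein known in mouse as caspase-11, which binds bacterial lipopolysaccharide in the cytosol and cleaves gasdermin D to open pores in the cell membrane. Caspase-8 starts apoptosis from death receptors, caspase-9 starts it from mitochondria within the apoptosome, caspase-2 is activated on the PIDD1 platform, and caspase-6 is an executioner. Type I interferon is itself a signal of infection, and many of its targets lie in these pathways.

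Levels are log2 values that the authors normalised with RMA, and a change is a difference of 2 mean log2 values. A gene was called where the adjusted p of limma was under 0.05 over all 23332 clusters and the change was at least 1.5-fold, which is 0.585 on the log2 scale. The arrays had medians between 5.84 and 5.90 and upper quartiles between 7.77 and 8.15. The upper quartile was lowest on array 12 (2 h). In untreated cells, percentiles of markers were taken among the 14860 genes with exactly 1 symbol. There 6 macrophage markers, Cd68, Csf1r and Adgre1 among them, had a median percentile of 98.3 and ran from 52.9 to 99.9. Markers of 9 other cell types had list medians of 7.4 to 39, and the highest single marker, of T cells, stood at 88. The macrophage marker Fcgr1 rose at every time, by 2.43 at 4 h. Of the markers of other cells, Kdr (1 of 4 of endothelial cells) rose at every time, by 3.47 at 4 h, and Kit (1 of 3 of mast cells) fell by 1.16 at 4 h. Cd28 (1 of 5 of T cells) fell by 0.64 at 4 h and rose by 0.93 at 24 h. The mean level of the 4 endothelial markers lay between 6.09 and 6.20 on the arrays at 4 h, against 5.06 and 5.08 at 0 h, and their part in the results below was not tested. None of the 6 neutrophil markers was called by limma. In these bulk samples fewer cells of a type and less RNA per cell cannot be told apart.

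Over the time course, 6 of the 9 genes were called at least once against 0 h, 5 of them up (Nod1, Casp1, Casp4, Casp8 and Casp2) and 1 down (Nlrp3). Pycard, Casp9 and Casp6 were called at no time. At 4 h these 5 were called up together, whereas 3.59% of all clusters were called up and 3.95% down. The median change of the 9 genes at 4 h was 1.03, against -0.07 over all clusters. At the start the response was narrower, with Casp4 and Casp2 called up at 1 h, against 0.467% of clusters up and 0.0814% down. Nod1 joined them at 2 h, when 1.54% of clusters were called up and 0.621% down. By 8 h only Casp1 and Casp4 were still called up, beside 1.5% of clusters up and 0.544% down.

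At 24 h none of the 9 was called by limma, and 0.613% of clusters were called up and 0.836% down. With an unadjusted p under 0.05 and no fold threshold, 3 were higher at 24 h and 0 were lower. The 3 were Nod1, Casp1 and Casp4, with changes of 0.36, 0.32 and 0.36. The share of all clusters at this looser threshold was not computed, so this count has no background to be set against. The median change of the 9 genes was 0.22 after 1 h, 0.40 after 2 h, 0.26 after 8 h and 0.13 after 24 h, where that of all clusters lay between -0.02 and 0.03.

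**Figure D1:**
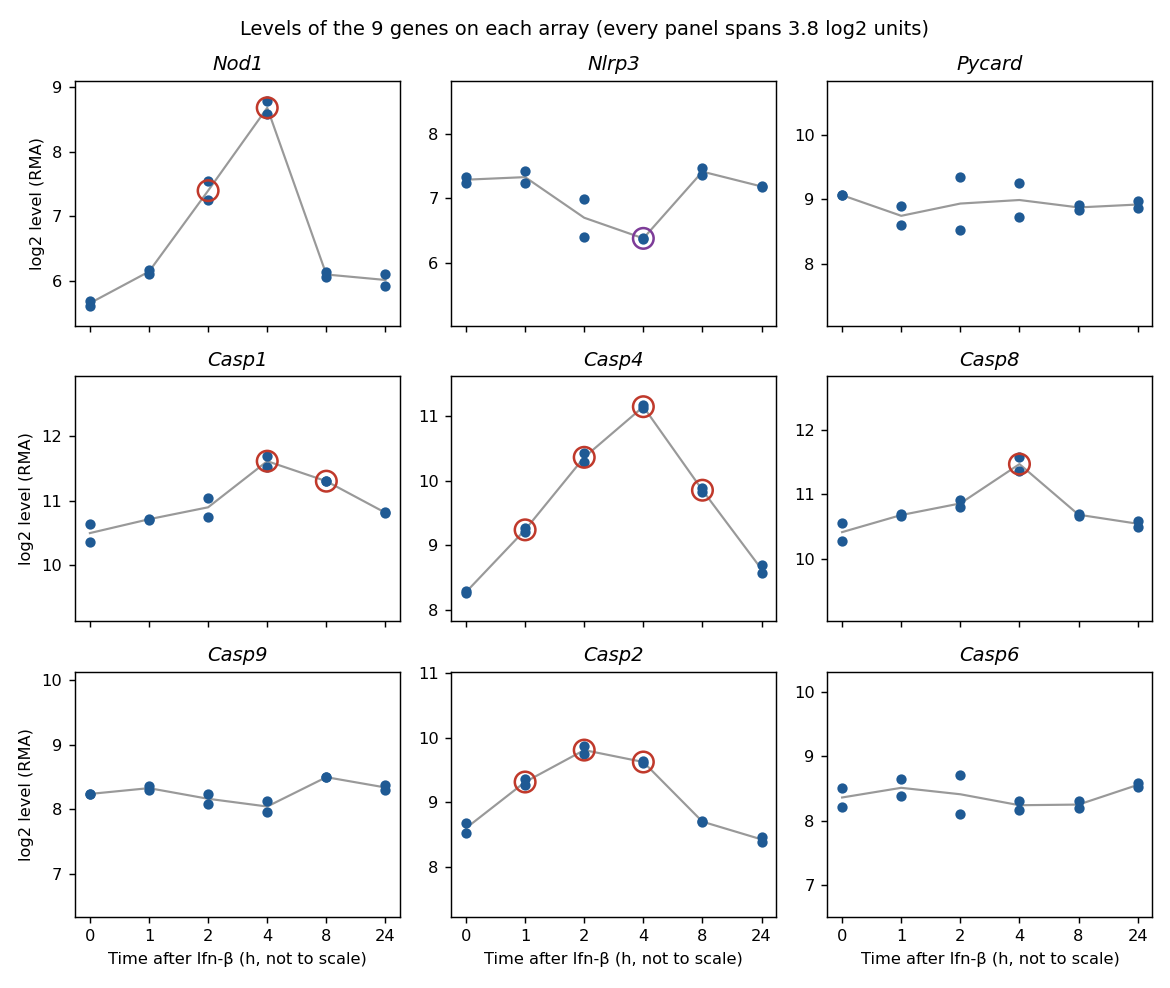
Log2 RMA level (y axis, every panel spanning 3.8 log2 units) of each gene on each of the 12 arrays (points) against time after Ifn-β (x axis, in hours and not to scale), with a line through the means. A red ring marks a mean called up and a purple ring a mean called down against 0 h, so that Nod1, Casp1, Casp4 and Casp8 are seen to peak at 4 h, Casp2 at 2 h, and Nlrp3 to be lowest at 4 h.

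Sequences around annotated starts of genes that were called up at 4 h are shown to place them beside the measured courses. RefSeq promoter windows (GRCm38.p6), running from 250 bases before to 50 after an annotated start, were found for all 9 genes, 12 windows in all. They were searched on both strands for 3 patterns: an ISRE-like pattern, GAAANNGAAA, a GAS pattern, TTCNNNGAA, and the shorter IRF core, AANNGAAA, which every ISRE-like match contains. The ISRE-like pattern was in the windows of 0 of the 9 genes. It was in 3.44% of all 32851 windows, or 3.99% of all genes with a window. The GAS pattern was in 1 gene, Nod1, and in 8.3% of all windows, or 9.55% of all genes with a window. It can overlap the other patterns, although it did not in Nod1. The IRF core was in 5 genes (Nod1, Nlrp3, Pycard, Casp4 and Casp8) and in 23.92% of all windows, or 26.67% of the 27025 genes with a window. So the core was present in 3 of the 5 genes called up at 4 h, in Nlrp3, which was called down, and in Pycard, which was not called. The core was absent from the windows of Casp1 and Casp2, which were called up, and of Casp9 and Casp6, which were not called. A match of letters is a description and not a site. A window follows of each of the 3 genes that were called up at 4 h and held a match. Each runs 5′ to 3′ along the gene, with matches in capitals. The windows shown for Nod1 and Casp8 lie at starts inside the gene spans given below, not upstream of them.
Casp4 (first of 2 windows, chr9:5308599-5308898, plus strand): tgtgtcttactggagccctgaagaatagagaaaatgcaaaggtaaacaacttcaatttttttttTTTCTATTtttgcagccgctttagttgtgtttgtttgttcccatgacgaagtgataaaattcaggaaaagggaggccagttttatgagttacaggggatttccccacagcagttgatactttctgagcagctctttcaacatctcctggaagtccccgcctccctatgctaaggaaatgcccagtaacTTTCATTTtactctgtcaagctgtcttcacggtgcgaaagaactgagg
Nod1 (second of 2 windows, chr6:54971612-54971911, minus strand): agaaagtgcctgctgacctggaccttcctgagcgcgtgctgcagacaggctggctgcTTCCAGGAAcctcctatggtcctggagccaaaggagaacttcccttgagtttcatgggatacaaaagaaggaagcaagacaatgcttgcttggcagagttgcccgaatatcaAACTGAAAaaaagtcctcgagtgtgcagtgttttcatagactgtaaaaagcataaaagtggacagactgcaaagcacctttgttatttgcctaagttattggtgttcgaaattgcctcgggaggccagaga
Casp8 (chr1:58802252-58802551, plus strand): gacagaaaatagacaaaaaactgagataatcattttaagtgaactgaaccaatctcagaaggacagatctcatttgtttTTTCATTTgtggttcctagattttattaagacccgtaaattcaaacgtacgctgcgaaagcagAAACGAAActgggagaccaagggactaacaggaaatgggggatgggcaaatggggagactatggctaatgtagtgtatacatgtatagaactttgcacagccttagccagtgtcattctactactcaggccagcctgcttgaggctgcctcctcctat
In Casp4 both capital stretches are IRF cores read on the opposite strand, one at -186 to -179 and one at 2 to 9 from the start base, which is counted as 0. In Nod1 the first stretch, at -193 to -185, is the GAS match and the second, at -81 to -74, is an IRF core. In Casp8 the cores lie at -171 to -164 and at -108 to -101. The window of Casp2, which was also called up at 4 h, held none of the 3 patterns and follows. That of Casp1, called up at 4 h as well, held none either.
Casp2 (chr6:42264735-42265034, plus strand): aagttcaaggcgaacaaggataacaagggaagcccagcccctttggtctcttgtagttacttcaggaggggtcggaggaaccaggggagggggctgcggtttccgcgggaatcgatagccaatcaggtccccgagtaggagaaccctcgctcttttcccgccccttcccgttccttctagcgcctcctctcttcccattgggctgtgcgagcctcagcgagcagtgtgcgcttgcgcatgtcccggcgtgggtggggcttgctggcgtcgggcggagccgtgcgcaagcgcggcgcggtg

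Nod1 (transcript cluster 6953800; GRCm38.p6 chr6:54923942-54972674) had the largest change of the 9 genes. Its levels were 5.69 and 5.61 before treatment, 6.11 and 6.17 after 1 h, 7.54 and 7.25 after 2 h, 8.58 and 8.78 after 4 h, 6.05 and 6.14 after 8 h, and 6.11 and 5.91 after 24 h. Both levels before treatment lay below the array medians, and whether they stood above background was not tested. Both arrays at 2 h and both at 4 h lay above all arrays of the other times, and the 2 h and 4 h arrays did not overlap each other. The change from 0 h was 1.75 at 2 h (SE 0.13, limma adjusted p = 2.27e-04). It reached 3.03 at 4 h (adjusted p = 4.15e-06), which is 8.17-fold. At 1 h it was 0.49, and although both arrays lay above both at 0 h, this missed the threshold (adjusted p = 0.34).

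Most of the rise of Nod1 fell between 1 and 4 h. It gained 1.26 between 1 and 2 h (adjusted p = 0.00777) and 1.29 between 2 and 4 h (adjusted p = 0.00399). Between 4 and 8 h it then fell by 2.59 (95% interval -2.89 to -2.28, adjusted p = 1.89e-04), a 6-fold drop. What remained at 8 h was 0.45 above 0 h (interval 0.14 to 0.75, adjusted p = 0.172), and the level at 24 h differed from that at 8 h by -0.09 (adjusted p = 0.906). The calls against 0 h and the fall after 4 h held with each array left out. The step from 1 to 2 h was lost without array 5 or 8 (1 h; adjusted p up to 0.0975). The step from 2 to 4 h was lost without array 16 (4 h; 0.0508).

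Nlrp3 (cluster 6781368; chr11:59541569-59566955) ran the other way. Its arrays read 7.33 and 7.24 before treatment, 7.42 and 7.23 after 1 h, 6.99 and 6.40 after 2 h, 6.38 and 6.37 after 4 h, 7.46 and 7.36 after 8 h, and 7.19 and 7.17 after 24 h. The arrays at 4 h were the lowest of the 12, and the 2 at 2 h were 0.59 apart. Against 0 h it fell by 0.91 at 4 h (SE 0.18, adjusted p = 0.0157), or 1.88-fold. Between 4 and 8 h it rose by 1.04 (adjusted p = 0.0167), after which its mean lay 0.13 above 0 h (adjusted p = 0.83). Leaving out any one of the arrays of 0 or 4 h ended the call of the fall (adjusted p up to 0.104), and leaving out any one of 4 or 8 h ended that of the rise from 4 to 8 h (up to 0.123). At 2 h the change of -0.59 was not called (adjusted p = 0.173). Without array 10 it was -0.89, a value that rests on array 12 alone at 2 h. Array 12 had the lowest upper quartile (7.77, against 8.15 on array 10) and read below array 10 for every gene followed here. Whether the lower Nlrp3 reading belongs to that array as a whole was not tested.

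Pycard (cluster 6971415; chr7:127991373-127993867), the adaptor, showed no change that the test could separate from the spread. It read 9.06 and 9.07 before treatment, 8.89 and 8.60 after 1 h, 9.34 and 8.53 after 2 h, 8.72 and 9.26 after 4 h, 8.83 and 8.92 after 8 h, and 8.86 and 8.98 after 24 h. The arrays at 2 h were 0.81 apart, more than the 0.32 between its highest and lowest mean. Its change at 4 h was -0.08, with a 95% interval from -0.68 to 0.53 (adjusted p = 0.908), so a change up to that size is not excluded by these arrays.

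**Figure D2:**
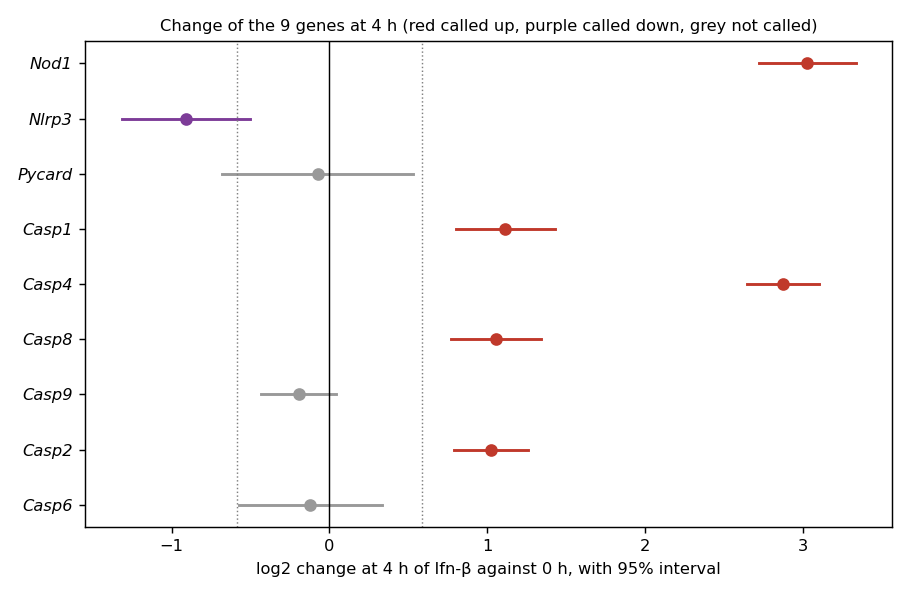
Change of each gene at 4 h of Ifn-β against 0 h (points, log2, x axis) with its 95% interval from the limma fit (bars) and the 1.5-fold threshold (dotted lines). Nod1 (3.03) and Casp4 (2.88) lie apart from Casp1, Casp8 and Casp2 (1.03 to 1.12), Nlrp3 is below 0, and the intervals of Pycard, Casp9 and Casp6 include 0.

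The pair of inflammatory caspases lie next to each other on chromosome 9, with 1567 bases between the end of Casp1 and the start of Casp4. Casp4 was called from 1 h and Casp1 from 4 h, and both were called at 4 and 8 h. Casp4 (cluster 6986649; chr9:5308849-5336791) was called against 0 h at 4 of the 5 times, more than any other of the 9. Its levels were 8.28 and 8.26 before treatment, 9.27 and 9.20 after 1 h, 10.43 and 10.29 after 2 h, 11.17 and 11.12 after 4 h, 9.88 and 9.82 after 8 h, and 8.69 and 8.56 after 24 h. No 2 times overlapped, and the arrays of a time were at most 0.14 apart. The change from 0 h was 0.97 after 1 h (SE 0.10, adjusted p = 0.00356), 2.09 after 2 h (adjusted p = 1.06e-05), 2.88 after 4 h (adjusted p = 9.51e-07, 7.34-fold) and 1.58 after 8 h (adjusted p = 7.17e-05). At 24 h both arrays still lay above both at 0 h, by a mean of 0.36, which missed the threshold (adjusted p = 0.15).

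Casp4 alone was called in every step from one time to the next, up by 1.13 from 1 to 2 h (adjusted p = 0.0035) and by 0.79 from 2 to 4 h (adjusted p = 0.00838). It fell by 1.30 from 4 to 8 h (adjusted p = 6.95e-04) and by 1.23 from 8 to 24 h (adjusted p = 0.00121). Without array 5 (1 h) the call at 1 h was lost (adjusted p up to 0.0518), and the step from 2 to 4 h was lost without array 15 or 16 (up to 0.089).

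Casp1 (cluster 6986648; chr9:5298517-5307281) was first called at 4 h. It read 10.64 and 10.36 before treatment, 10.72 and 10.71 after 1 h, 11.05 and 10.75 after 2 h, 11.70 and 11.53 after 4 h, 11.30 and 11.31 after 8 h, and 10.81 and 10.82 after 24 h. The arrays at 4 h and at 8 h lay above those of all other times. Against 0 h the change was 1.12 at 4 h (SE 0.14, adjusted p = 0.00179), followed by 0.81 at 8 h (adjusted p = 0.0229). Between 8 and 4 h the difference of -0.31 was not called (interval -0.62 to 0.0048, adjusted p = 0.339), whereas the level at 24 h was 0.80 below that at 4 h (adjusted p = 0.00948). The call at 8 h was lost without any of arrays 4 (0 h), 18 or 23 (8 h), and 17 or 22 (24 h), with adjusted p up to 0.148.

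Among the apoptotic initiators, Casp8 (cluster 6749736; chr1:58795233-58847503) had a single called time. It read 10.55 and 10.28 before treatment, 10.70 and 10.66 after 1 h, 10.91 and 10.81 after 2 h, 11.58 and 11.36 after 4 h, 10.70 and 10.67 after 8 h, and 10.59 and 10.50 after 24 h. Only the arrays at 4 h exceeded 11. The change at 4 h was 1.06 (SE 0.12, adjusted p = 0.00142, 2.08-fold), and between 4 and 8 h it fell by 0.79 (adjusted p = 0.012). That fall was lost without array 15 (4 h), 18 or 23 (8 h), with adjusted p up to 0.11. The rise of 0.61 from 2 to 4 h (adjusted p = 0.0481) was lost on leaving out any of the 12 arrays (up to 0.304).

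Casp2 (cluster 6945778; chr6:42264902-42282508) had its highest mean at 2 h, although 2 and 4 h were not separated (adjusted p = 0.478). Its levels were 8.68 and 8.52 before treatment, 9.36 and 9.27 after 1 h, 9.87 and 9.75 after 2 h, 9.64 and 9.61 after 4 h, 8.71 and 8.69 after 8 h, and 8.47 and 8.38 after 24 h. The arrays at 1, 2 and 4 h formed 3 separate levels above all the rest, and both at 24 h lay below both at 0 h. From 0 h the change was 0.72 at 1 h (adjusted p = 0.0227), 1.21 at 2 h (SE 0.10, adjusted p = 4.07e-04), followed by 1.03 at 4 h (adjusted p = 5.43e-04). Between 4 and 8 h it fell by 0.93 (adjusted p = 0.00275). The mean at 24 h was 0.18 below that at 0 h, within an interval of -0.41 to 0.06 (adjusted p = 0.517). The call at 1 h was lost on leaving out any single array except those of 2 h (adjusted p up to 0.203).

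Casp9 (cluster 6918205; chr4:141793612-141815978) and the executioner Casp6 (cluster 6901335; chr3:129901415-129914112) were never called. Casp9 read 8.23 and 8.24 before treatment, 8.36 and 8.29 after 1 h, 8.24 and 8.08 after 2 h, 8.12 and 7.96 after 4 h, 8.50 and 8.49 after 8 h, and 8.38 and 8.29 after 24 h. Its arrays at 4 h were below both at 0 h and those at 8 h above all others, a difference of 0.46 between 8 and 4 h that missed both thresholds (adjusted p = 0.0554). The change at 4 h against 0 h was -0.20, with an interval from -0.43 to 0.04 (adjusted p = 0.314). Casp6 read 8.50 and 8.22 before treatment, 8.64 and 8.38 after 1 h, 8.71 and 8.11 after 2 h, 8.31 and 8.17 after 4 h, 8.31 and 8.19 after 8 h, and 8.58 and 8.53 after 24 h. Its arrays at 2 h were 0.60 apart, and its mean levels spanned 0.32 over all 6 times. At 4 h its change was -0.12 (interval -0.58 to 0.34, adjusted p = 0.786).

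The steps between neighbouring times place these courses against each other. From 1 to 2 h the genes called up were Nod1 and Casp4, beside 0.369% of all clusters up and 0.0814% down. From 2 to 4 h they were Nod1, Casp1, Casp4 and Casp8, beside 1.38% of clusters up and 0.789% down, and the change of Casp1 was 0.72 (adjusted p = 0.0374, lost without 9 of the 12 arrays, up to 0.254). The change of Casp2 over that step was -0.19 and was not called (adjusted p = 0.478). From 4 to 8 h, Nod1, Casp4, Casp8 and Casp2 were called down and Nlrp3 up, beside 1.62% of clusters down and 1.68% up. From 8 to 24 h Casp4 alone was called, down, beside 1% of clusters down and 0.21% up. The median change of the 9 genes in these 4 steps was 0.19, 0.06, -0.31 and -0.16, and that of all clusters was -0.05 in each of the first 2, 0.05 from 4 to 8 h and 0.02 from 8 to 24 h.

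**Figure D3:**
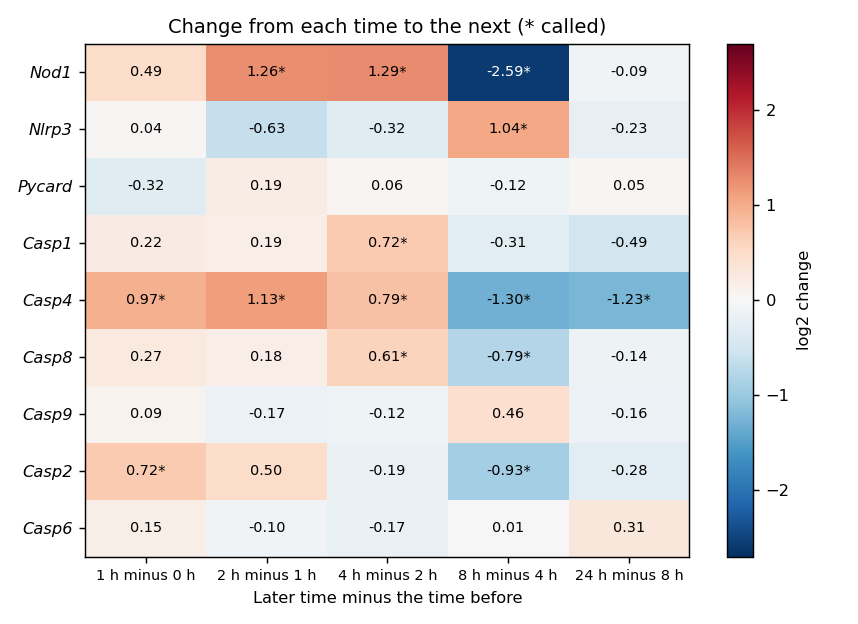
Log2 change of each gene (rows) from each time to the next (columns), the later time minus the one before, with the value in each cell and an asterisk where it was called by limma. The column for 8 h minus 4 h shows Nod1, Casp4, Casp8 and Casp2 in blue and Nlrp3 in red, and Casp4 has an asterisk in all 5 columns.

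In the order of mean levels, Nod1 stood highest at 4 h, then 2 h, then 1 h, with each of these called against the next (adjusted p = 0.00399 from 4 to 2 h and 0.00777 from 2 to 1 h), while 1, 8, 24 and 0 h could not be separated as neighbours (adjusted p between 0.287 and 0.917). Casp4 ran 4, 2, 8, 1, 24 and 0 h, and each neighbouring pair except 24 and 0 h had an adjusted p under 0.05. Between 8 and 2 h, for example, Casp4 differed with an adjusted p of 0.0453. Casp8 ran 4, 2, 8, 1, 24 and 0 h as well, but only 4 and 2 h were separated (adjusted p = 0.0481). Casp2 ran 2, 4, 1, 8, 0 and 24 h, and among neighbours only 1 and 8 h were separated (adjusted p = 0.0258). Casp1 ran 4, 8, 2, 24, 1 and 0 h with no neighbours separated (adjusted p between 0.231 and 0.976). For Nlrp3, highest at 8 h and lowest at 4 h, none of the neighbours was separated either (adjusted p between 0.246 and 0.998). The same held for Pycard, Casp9 and Casp6, whose neighbouring times had adjusted p of at least 0.872, 0.684 and 0.87.

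Over the 12 arrays, which share the same cells and the same 6 times, the levels of Nod1 and Casp8 had a Pearson r of 0.946, Nod1 and Casp4 0.91, and Casp4 and Casp8 0.903. Casp1 and Casp4, the neighbours on chromosome 9, had 0.833, Casp1 and Casp8, on different chromosomes, had 0.841, and Casp1 and Casp2 had 0.375. Nod1 and Nlrp3 had -0.889, and Nlrp3 and Casp9 had 0.868. Among all genes with 1 symbol, those most like Nod1 by this measure were Rnf139 (0.992) and Slc30a1 (0.991), which changed by 1.55 and 1.11 at 4 h. Those most like Casp4 were Nt5c3 (0.996, change 3.31) and Ifi205 (0.994, change 4.94). For Casp1 they were Abcb1a (0.979, change 1.95) and Nmi (0.978, change 2.18), for Casp8 Tut7 (0.984, change 1.77) and Snx10 (0.982, change 1.25), for Casp2 Etv3 (0.989, change 0.96) and Tiparp (0.977, change 0.87), and for Nlrp3 Setdb1 (0.984, change -0.75) and Dolpp1 (0.98, change -0.53). These correlations describe the 12 arrays and carry no test.

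Other genes of the same pathways were read from 6 lists, in which 42 of 61 genes were measured with exactly 1 symbol. None of the 42 was called up by limma at 1 h, 4 were at 2 h, 12 at 4 h, 6 at 8 h and none at 24 h, and none was called down at any time. Over all clusters, 1.54% were called up at 2 h, 3.59% up and 3.95% down at 4 h, and 1.5% up at 8 h. At an unadjusted p under 0.05 with no fold threshold, 5 were higher and 1 lower at 1 h, 9 higher and 1 lower at 2 h, 14 higher and 7 lower at 4 h, 9 higher and 3 lower at 8 h, and 9 higher and 1 lower at 24 h. The share of all clusters at that looser threshold was not computed, so these counts have no background beside them. The median change of the 42 was 0.03 at 4 h, against -0.07 over all clusters.

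In the list of substrates and regulators of the inflammasome, 3 of 11 genes were called up at 4 h. Il18, the cytokine that caspase-1 matures, read 7.76 and 7.63 at 4 h, against 5.92 and 5.85 at 0 h, higher by 1.81 (SE 0.23, adjusted p = 0.00193), and was 1.26 up at 8 h (adjusted p = 0.0285). Gsdmd, the pore-forming gasdermin that both caspases cleave, read 9.64 and 9.70 at 4 h, against 8.94 and 8.79 at 0 h, higher by 0.81 (SE 0.12, adjusted p = 0.0039), and was 0.85 up at 8 h (adjusted p = 0.00695). Il1rn, which encodes the antagonist of the interleukin-1 receptor, was up by 0.62 at 2 h, 0.81 at 4 h (adjusted p = 0.00462) and 0.91 at 8 h. The genes of the agonists, Il1a and Il1b, were not called at 4 h, with changes of 0.01 and -0.18 (adjusted p = 0.994 and 0.697). Their mean levels at 0 h, 4.8 and 5.255, lay below the array medians. Whether these 2 clusters stood above background was not tested, so their missed calls cannot be set against the rise of Il1rn. The calls at 8 h of Il18, Gsdmd and Il1rn were each lost on leaving out some of the arrays (adjusted p up to 0.16, 0.072 and 0.0662), as was that of Il1rn at 2 h (up to 0.196).

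Of the partners of the initiator caspases, 3 of 7 were called up at 4 h. Mlkl, the executor of necroptosis, which caspase-8 restrains, read 10.42 and 10.45 at 4 h, against 8.61 and 8.29 at 0 h, higher by 1.99 (SE 0.14, adjusted p = 5.88e-05), and was still up by 1.88 at 8 h (adjusted p = 1.63e-04). Apaf1, the scaffold of the apoptosome, and Bid, which links caspase-8 to mitochondria, were called at 4 h, with rises of 0.79 and 0.77 (adjusted p = 0.00656 and 0.0027). At 8 h the change of Bid was 0.55 (adjusted p = 0.035), under the 1.5-fold threshold. The call of Mlkl at 2 h (0.94, adjusted p = 0.0103) and that of Apaf1 were lost with some arrays left out (up to 0.0689 and 0.058). Of 7 inhibitors and their antagonists, Cflar, the catalytically inactive relative of caspase-8 that holds it in check, rose by 0.83 at 2 h (adjusted p = 0.0225, lost on leaving out some arrays, up to 0.139) and by 1.2 at 4 h (adjusted p = 0.00143). Serpinb9, an inhibitor of granzyme B, rose by 0.97 at both 4 and 8 h (adjusted p = 0.0179 and 0.0457, lost on leaving out some arrays, up to 0.124 and 0.257).

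Among 7 other NOD-like receptors and inflammasome sensors, Aim2, the sensor of cytosolic DNA, read 10.81 and 10.57 at 4 h, against 9.25 and 8.95 at 0 h, a rise of 1.59 (SE 0.19, adjusted p = 0.0015). Nod2, the sensor of muramyl dipeptide, rose by 0.78 at 4 h (adjusted p = 0.0197, up to 0.132 on leaving out an array). Of 8 genes of Nod1 signalling and ligand transport, only Slc15a3, a lysosomal transporter of peptides and histidine, was called, by 0.62 at 2 h (adjusted p = 0.0132, up to 0.105 on leaving out an array), 1.03 at 4 h (adjusted p = 3.44e-04), and 1.04 again at 8 h (adjusted p = 6.7e-04). In the list of other caspases, with 2 measured, Casp12, which belongs to the inflammatory group by sequence, read 4.62 and 5.16 at 4 h, against 2.91 and 3.23 at 0 h, a difference of 1.82 (SE 0.19, adjusted p = 8.12e-04). These levels lie below the array medians, the cluster is among the dimmest 30% by mean level, and whether it stood above background was not tested. Casp14 was not called (0.33, adjusted p = 0.22).

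**Figure D4:**
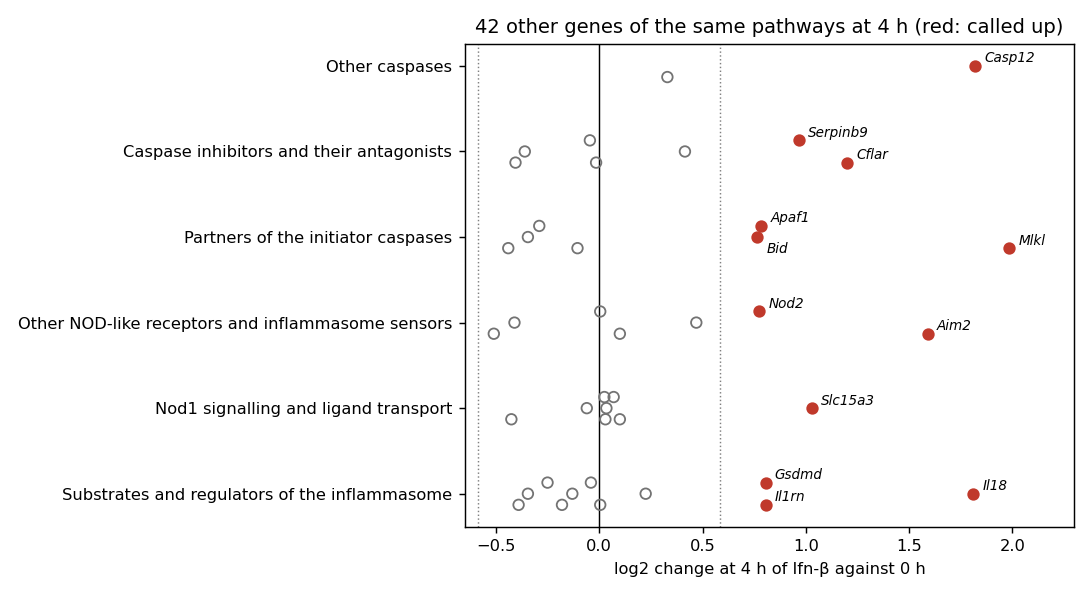
Log2 change at 4 h against 0 h (x axis) of the 42 other pathway genes, grouped by list (y axis), with the 1.5-fold threshold as dotted lines. Filled red points are the 12 genes called up, among them Mlkl (1.99), Il18 (1.81) and the dim Casp12 (1.82), and open points are the 30 that were not called, which lie between the dotted lines.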

How the data were processed

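RNA from 12 macrophage samples was hybridised to Affymetrix Mouse Exon 1.0 ST arrays. The authors summarised the deposited log2 values with RMA in the Affymetrix Expression Console at the core gene level; versions are not given in the sources used here. RMA corrects background, sets the arrays to a common distribution by quantile normalization and summarises probes by median polish, so a change in the total RNA of a cell would not be seen. The values, between 0.81 and 14.2, were used as deposited. Arrays give no counting depth, and precision is limited by their number.

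Clusters were named through the platform annotation, which gave exactly 1 symbol to 14996, several to 1019 and none to 7317. All times were fitted together in limma 3.58.1 (lmFit, eBayes; R 4.3.3; residual degrees of freedom 6, prior 2.31), two-sided, with Benjamini-Hochberg adjustment over all clusters within each comparison. Intervals are 95%. Each time was compared with 0 h and with the time before. The genes named are the 9 genes, every list gene called against 0 h, and the 2 genes most correlated with each called gene. Cell type markers are named as well. Il1a, Il1b and Casp14, which were called at no time, were named outside this rule. The genes and the lists were chosen with earlier results of these data known. The script was tested on simulated data. Gene coordinates and promoter windows are from RefSeq tables of GRCm38.p6. Tables and plots were made with Python 3.11.15, numpy 2.4.6, pandas 2.3.3 and matplotlib 3.10.9.

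Settings were changed one at a time: thresholds (unadjusted p, no fold, 2-fold), models (the 2 times compared alone, trended and robust eBayes, weighted arrays), scaling (a second quantile normalization, median centring), a filter on the dimmest 30% of clusters, and omission of each array in turn. Fits without the 2 h arrays, or without the 8 and 24 h arrays, were chosen after seeing the data.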

Additional observations from a re-analysis of the deposited data

How the results depend on the processing

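The counts of 3 genes called up at 2 h and 5 at 4 h against 0 h held with each array left out, and so did the counts of 0 at 24 h. With a 2-fold threshold, 0 of the 9 genes were up at 1 h, 0 down and 6 of the other pathway genes up at 4 h, 1 up at 8 h (other pathway genes 3, and 0 at 2 h), 1 up from 2 to 4 h and 2 down from 4 to 8 h. With only the 2 times compared in the fit, which leaves few degrees of freedom, counts up were 0 at 1 h, 2 at 2 h (Casp2 lost), 1 at 8 h, 0 from 1 to 2 h and 0 from 2 to 4 h, 3 were down from 4 to 8 h (Casp8 lost) and 0 from 8 to 24 h, and of the other pathway genes 0 were up at 2 h and 2 at 8 h. Array weights left 1 up from 1 to 2 h, 2 from 2 to 4 h, and 0 of the other pathway genes at 2 h. Without the 8 and 24 h arrays, chosen after seeing the data, 1 was up at 1 h, 1 from 1 to 2 h and 1 from 2 to 4 h, 0 down at 4 h, and 0 of the other pathway genes up at 2 h. At an unadjusted p, 1 gene was down at 2 h and 1 from 1 to 2 h, and of the other pathway genes 8 were up at 2 h and 1 at 24 h. With no fold threshold, 1 of the other pathway genes was down at 4 h and 1 up at 24 h. Quantile normalization applied again gave 7 of these up at 2 h, and leaving out the 2 h arrays 1 up at 24 h. The causes were not tested beyond the fewer arrays or stricter threshold that a setting itself brings. Shares of all clusters were not computed under the changed settings.

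Leaving out 1 array at a time gave 0 to 2 genes up at 1 h, 0 to 1 down at 2 h, 0 to 1 down at 4 h, 1 to 2 up at 8 h, 1 to 2 up and 0 to 1 down from 1 to 2 h, 0 to 3 up and 0 to 1 down from 2 to 4 h, and 0 to 1 up from 4 to 8 h. For the other pathway genes it gave 0 to 7 up after 2 h, 2 to 7 after 8 h and 0 to 1 after 24 h. Changes whose sign turned were all uncalled, and with all arrays fitted none was larger than 0.19 in size. With 1 array left out some were larger, as the ranges that follow show, so these changes were poorly determined. The change of Casp6 from 4 to 8 h was -0.025 with arrays centred and -0.0719 with quantile normalization, which also gave 0.0079 at 4 h and 0.0177 from 1 to 2 h. With 1 array left out, Casp6 ran between -0.25 and 0.35 after 2 h, -0.26 and 0.02 after 4 h, -0.25 and 0.03 after 8 h, -0.40 and 0.20 from 1 to 2 h, -0.47 and 0.13 from 2 to 4 h, and -0.06 and 0.08 from 4 to 8 h. Pycard ran between -0.54 and 0.28 after 2 h, -0.35 and 0.20 after 4 h, -0.22 and 0.60 from 1 to 2 h, -0.35 and 0.46 from 2 to 4 h, -0.39 and 0.16 from 4 to 8 h, and -0.015 and 0.105 from 8 to 24 h. Nlrp3 at 1 h ran between -0.055 and 0.135, Casp8 at 24 h between -0.005 and 0.265, Casp9 at 2 h between -0.155 and 0.005, and Nod1 from 8 to 24 h between -0.185 and 0.015.

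No paired analysis was possible because the array numbers differ between all arrays and no label pairs them. Each of the 9 genes has 1 cluster, so using another cluster of a gene gave no value. Filtering out dim clusters removed none of the 9 and, of the other pathway genes called at 4 h, Casp12. With 2 arrays a time, a missed call does not show that a level stayed the same.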
